A study of Mus musculus with 30 samples.

Results

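Neurospheres that carried a GFP retrovirus were compared between the Olig1/2 genotypes on 5 of the 30 arrays of this series. The 5 were chosen by the label that names GFP as the second gene delivered, and comprised 3 arrays of null lines (line numbers 12, 13 and 14) and 2 arrays of heterozygous lines (11 and 15). Null lines were Olig1/2-/- and Ink4a/Arf-/-, and heterozygous lines were Olig1/2+/- and Ink4a/Arf-/-. Every line was a culture of embryonic neural progenitors from the ganglionic eminence of E14.5 mouse embryos, on a mixed Swiss and C57BL/6J background. Every line had also received hEGFRvIII, a mutant epidermal growth factor receptor, by retrovirus at passage 1, followed by puromycin. The GFP virus was added at passage 3 and cells were selected with blasticidin. Set beside the GFP arrays were 3 null and 2 heterozygous arrays of the same line numbers without GFP virus, called untransduced here although they carried the EGFRvIII virus. Cells were harvested between passages 4 and 15, and the labels do not tie an array to its passage, so that GFP virus, blasticidin and passage cannot be told apart. The series design calls the arrays of a condition biological replicates, and whether each line came from 1 embryo is not stated. The titles name Olig2, while the other labels name Olig1/2.

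Olig1 and Olig2 lie next to each other and encode basic helix-loop-helix factors, which bind DNA at E-boxes and drive the oligodendrocyte lineage and the proliferation of its precursors. Id proteins such as Id4 lack a DNA-binding region and hold helix-loop-helix partners away from DNA. The Ink4a/Arf locus, Cdkn2a, encodes an inhibitor of the cyclin D kinases and an activator of p53. A virus that carries GFP is the usual control for the effects of transduction and drug selection, and the series also holds arrays with an Olig2 virus, which are not described here.

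The promoters of 3 genes on which the results turn are shown, namely Id4, which was much higher in null lines, Hmga2, which was much lower, and Slc6a11, the 1 gene with a called change between GFP and untransduced arrays. Each run holds the 250 bases before the RefSeq start of the gene in build GRCm38.p6, 5′ to 3′, with E-boxes (CANNTG, which reads the same on both strands) in capitals.

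Id4 (chr13:48260866-48261115, plus strand): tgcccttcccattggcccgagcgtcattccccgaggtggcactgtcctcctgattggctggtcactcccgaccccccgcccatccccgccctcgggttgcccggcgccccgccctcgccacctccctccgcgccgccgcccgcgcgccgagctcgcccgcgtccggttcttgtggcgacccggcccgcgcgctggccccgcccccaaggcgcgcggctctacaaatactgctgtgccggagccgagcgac

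Hmga2 (chr10:120476470-120476719, minus strand): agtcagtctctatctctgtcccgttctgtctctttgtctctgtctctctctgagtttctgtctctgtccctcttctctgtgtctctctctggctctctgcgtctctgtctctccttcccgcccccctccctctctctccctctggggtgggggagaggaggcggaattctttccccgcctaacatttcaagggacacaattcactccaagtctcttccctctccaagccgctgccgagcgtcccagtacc

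Slc6a11 (chr6:114130991-114131240, plus strand): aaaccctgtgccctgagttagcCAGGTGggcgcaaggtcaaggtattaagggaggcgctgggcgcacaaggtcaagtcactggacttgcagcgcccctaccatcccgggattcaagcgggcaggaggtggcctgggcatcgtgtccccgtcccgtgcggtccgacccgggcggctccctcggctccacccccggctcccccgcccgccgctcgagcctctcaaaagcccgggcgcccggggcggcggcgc

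The windows of Id4 and Hmga2 held 0 E-boxes, and that of Slc6a11 held 1, which began 228 bases before the start and was not CAGCTG. Among the genes that were higher in null GFP arrays (defined below), 188 of 245 had such a window, and 57.4% of the windows held CANNTG. Among the lower genes 88 of 114 had a window, of which 56.8% held it, against 66.0% of 27025 genes of the RefSeq table. The form CAGCTG stood in 19.7% of the windows of higher genes, 17.0% of those of lower genes and 12.8% of all. The RefSeq table also holds genes that were not tested on these arrays, so it is not a like base for the called genes. These shares describe letters in a window and were not tested.

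Values are MAS5 signals, on a linear intensity scale, and differences are log2 differences of the signal plus 16. The median signal ran from 128.9 to 171 on the GFP arrays and from 151.4 to 182.3 on the untransduced arrays. All 5 neural progenitor markers looked at (Nes, Sox2, Vim, Fabp7 and Egfr) lay at or above the array median on all 10 arrays. Of 16 ganglionic eminence genes with a probe set, Six3, Meis2 and Gad1 were at or above the median on all 10 arrays and Ebf1 on 9, while 9 genes, among them Dlx1, Dlx5, Gsx2 and Nkx2-1, were below it on every array. Microglial markers summed to between 437 and 592 on null GFP arrays and between 601 and 869 on heterozygous GFP arrays, with 1 of 6, Csf1r, at the median on each, and their part in the results was not tested. Of the 6 vascular and meningeal markers 0 or 1 reached it. The log2 ratio of the 3' to the 5' Gapdh control probe set, which rises as RNA degrades, was -0.09, 0.43 and -0.04 on null GFP arrays 12, 13 and 14, against -0.14 and -0.24 on heterozygous GFP arrays 11 and 15, and ran from -0.23 to -0.13 on the untransduced arrays. The RNA of null GFP array 13 had a labelled A260/A280 ratio of 2.83, and the other 9 ran from 1.75 to 1.94. Xist was at 29882 with GFP and 32030 without it in line 15 and from 161 to 416 on the other 8 arrays, so that line 15 alone had the Xist signal of female cells. In line 11 the Y-linked gene Kdm5d was at 513.3 with GFP virus and 143.6 without it. Apart from Xist in line 15, line numbers did not link the arrays closely. Over all genes tested, the deviations from the group means of same-numbered arrays correlated at -0.10 to -0.02, and chromosome 15 genes had a median log2 deviation of 0.20 on null GFP array 12 and -0.13 on the untransduced array of line 12.

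With GFP virus, 359 of 12428 genes tested were called between null and heterozygous lines (2.89%). Of these, 245 rose (1.97%) and 114 fell (0.917%), and 244 differed by at least 1 on the log2 scale. Called means an adjusted p under 0.05 in a limma fit of the 10 arrays with 1 mean per group, two-sided, with Benjamini-Hochberg adjustment over all genes tested. The median difference over all genes was -0.03. The count was 160 without heterozygous GFP array 11 and 133 without heterozygous GFP array 15. With a term for the Gapdh ratio it was 187, and a fit that set the GFP arrays beside the Olig2 virus arrays in place of the untransduced ones called 212, of which 188 were among the 359 with the same sign. A term for the high Xist signal, shared by both arrays of line 15, gave 148. Of 51 called genes named by rule, 18 kept their calls whichever array was left out. Of these, 16 also kept them in every other setting in which they were tested. The 16 are Olig1, Id4, Rgs16, Lmcd1, Cxcr4, Rab3c, Kif5c, D430041D05Rik, Kcnd2, Hmga2, Tagln2, Chl1, Gpaa1, Itga8, Dusp4 and Zmat3. Lmcd1, Kcnd2 and Gpaa1 were not tested in all of the settings. A stricter filter, with 5 or more arrays at or above their median, left 44 of the 51 genes to test. Kcnd2 was not among them, as it reached the median on heterozygous arrays only. It thus passed the filter used here through the group where it was high. The remaining 2, Thsd4 and Glul, lost the call only with other arrays in the fit.

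The deleted genes were read first. Olig1 had signals of 5124, 11291 and 6729 on null GFP arrays 12, 13 and 14, against 25682 and 24648 on heterozygous GFP arrays 11 and 15. It fell by 1.78 ± 0.24 (SE) on the log2 scale (adjusted p 0.0021). The 3 null arrays all lay below both heterozygous arrays, and null array 13 was the highest of the 3. Olig2 had signals of 10275, 8279 and 8949.6 in null lines, against 14757 and 13286 in heterozygous lines, a difference of -0.62 that was not called (adjusted p 0.051). Signal of both probe sets therefore remained in null lines, and whether either lies inside the deletion was not analysed here. Cdkn2a, deleted in every line, was at 55.3, 106 and 51.3 in null lines and 18.1 and 101 in heterozygous lines, all below the array medians.

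Id4 separated the genotypes by much the same amount with GFP virus and without it. Its signal was 2672, 4345 and 4283 in null lines 12, 13 and 14, against 195 and 208 in heterozygous lines 11 and 15, a rise of 4.09 ± 0.25 (SE, adjusted p 9.9e-06). Untransduced arrays of these lines gave 2574, 3316 and 2752 in null lines, against 119 and 200.3 in heterozygous lines, a rise of 4.08 (adjusted p 1.3e-05). The change of the difference with the virus was 0.01 ± 0.35 (SE, adjusted p 0.999). The other 2 Id4 probe sets gave 4.14 and 2.97 with GFP virus. In bulk RNA a rise of this kind cannot tell more expressing cells from more RNA per cell.

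**Figure D1:**
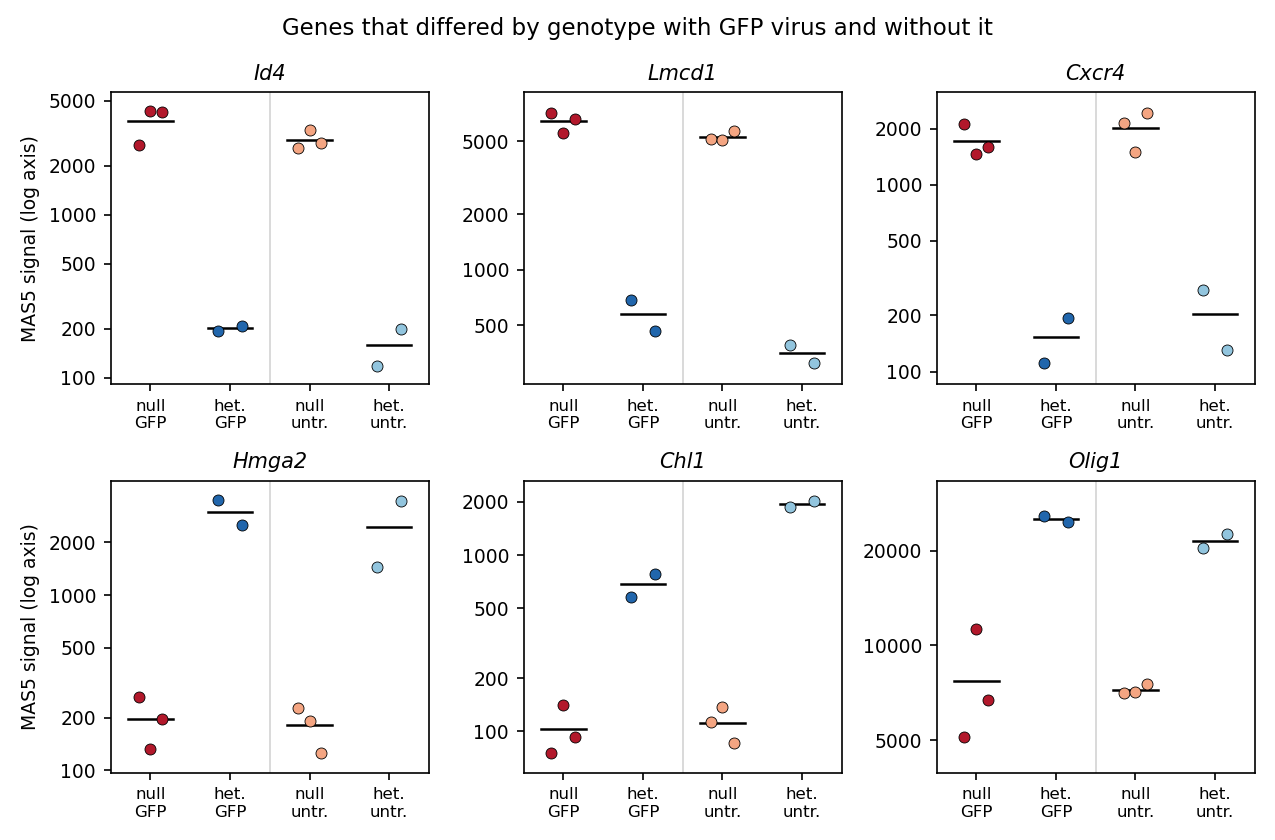
MAS5 signal (vertical log axis) of 6 genes on each array, with null and heterozygous (het.) lines carrying GFP virus at the left and untransduced (untr.) lines at the right of each panel. Points are arrays and bars are group means (n = 3 null and n = 2 heterozygous). Id4, Lmcd1 and Cxcr4 lie higher, and Hmga2, Chl1 and Olig1 lower, on every null array than on every heterozygous array of the same kind. On the GFP side this follows in part from the choice of genes with large called differences.

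The 12 genes with the largest rise in null GFP arrays included signalling and trafficking genes. Lmcd1, a LIM-domain transcription cofactor, had signals of 7121, 5542 and 6592 in null lines, against 685 and 463 in heterozygous lines, a rise of 3.46 ± 0.18 (SE, adjusted p 5.2e-06). Rgs16, which shortens G-protein signalling, was at 4072, 6955 and 5911 in null lines, against 567 and 198 in heterozygous lines, and rose by 3.97. Cxcr4, the receptor of the chemokine Cxcl12, was at 2121, 1459 and 1588 in null lines, against 111 and 194 in heterozygous lines, and rose by 3.39. In each of these genes every null array lay several-fold above both heterozygous arrays. Thsd4, a matrix protein gene, rose by 3.65, with signals of 319, 408 and 285 in null lines and 13.6 and 10.2 in heterozygous lines. Rab3c, a GTPase of secretory vesicles, rose by 3.37, with 269, 239.6 and 355 in null lines and 16.7 and 9.80 in heterozygous lines. In these 2 genes the heterozygous signals were near the constant of 16 that was added, and with 64 added the rises were 2.39 for Thsd4 and 2.18 for Rab3c. The kinesin gene Kif5c rose by 3.31 and the uncharacterised gene D430041D05Rik by 3.07.

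The remaining 4 of the 12 varied more between lines. C1qtnf1, a secreted C1q-related protein gene, was at 1346, 434 and 478 in null lines, against 30.3 and 9.10 in heterozygous lines, a rise of 4.30 ± 0.84 (SE, adjusted p 0.018). Its call was lost without heterozygous GFP array 11 (4.74), heterozygous GFP array 15 (3.86) or null GFP array 12 (3.79). Fam167a was at 3879, 570.2 and 385 in null lines, against 120.3 and 11.0 in heterozygous lines, and its rise of 4.001 was 2.83 and not called without heterozygous GFP array 15. Prex2, an activator of the GTPase Rac, rose by 3.10, but was not called without heterozygous GFP array 11 (2.60), heterozygous GFP array 15 (3.60) or null GFP array 14 (2.66). The rise of 3.06 in Ahnak, a large scaffold protein gene, was 2.32 and past no threshold once heterozygous GFP array 15 was left out.

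Of the 12 genes with the largest fall in null GFP arrays, 4 kept their calls whichever array was left out. Kcnd2, the gene of an A-type potassium channel, had signals of 4.10, 11.6 and 48.7 in null lines, against 1035 and 550.3 in heterozygous lines, and fell by 4.55 ± 0.59 (SE, adjusted p 0.0017). Its null signals lay around the constant added, and the difference was -5.68 with 1 added and -3.30 with 64, where that of Hmga2 was -3.57. Of the other 3 Kcnd2 probe sets, 2 stood at -3.17 and -3.54 and the dimmest at 0.07. Hmga2, a chromatin protein gene active in fetal stem cells, was at 261, 132 and 195 in null lines, against 3474 and 2503 in heterozygous lines, and fell by 3.85 ± 0.37 (SE, adjusted p 3.5e-04). All 4 Hmga2 probe sets were lower, at -4.41 to -1.87. Chl1, a neural adhesion gene of the L1 family, was at 75.8, 141 and 92.5 in null lines, against 580.2 and 783 in heterozygous lines, and fell by 2.57. The actin-binding gene Tagln2 was at 243, 262 and 324 in null lines, against 2687 and 1883 in heterozygous lines, and fell by 2.96. The null and heterozygous arrays did not overlap in these 4 genes, which follows from their choice by large falls and kept calls.

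The other 8 of the 12 falls were called with less margin. The calcium release channel gene Ryr3 fell by 3.61, the carbonic anhydrase-related gene Car8 fell by 3.03 and the secernin gene Scrn1 fell by 2.68. These 3 were not called without heterozygous GFP array 15 (-3.50, -2.96 and -2.15 in the same order). Ramp1, which encodes a partner of the calcitonin-like receptor, fell by 3.61, but not past the threshold without heterozygous GFP array 11 (-3.03). Pcdh7, a protocadherin gene, was at 3.60, 2.40 and 5.80 in null lines, against 321 and 186 in heterozygous lines, and fell by 3.71. With 1 in place of 16 added, Pcdh7 stood at -5.70 and was not called, and with 64 at -2.19. It was also not called without heterozygous GFP array 11 (-3.35) or 15 (-4.08), or the untransduced array of line 15 (-3.71). The synaptic activity gene Arc fell by 3.00, and was not called without either heterozygous GFP array (-3.25 without 11 and -2.75 without 15) or null GFP arrays 12 (-2.61) or 13 (-2.81). Cd109, a co-receptor of TGF-beta, fell by 3.54 and the FERM-domain gene Epb41l4a fell by 2.77. These 2 lost their calls without 6 and 7 of the 10 arrays in turn, over ranges of -4.34 to -3.04 and -3.22 to -2.14. Other probe sets gave smaller differences with GFP virus for several of the genes with large rises and falls. The 2 brightest others stood at 2.40 and 1.51 for Rab3c, -1.83 and -0.53 for Chl1, -2.20 and -0.23 for Ryr3, -2.21 and -0.96 for Scrn1, -0.72 and -0.56 for Ramp1 and -1.17 and -1.83 for Car8.

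The untransduced arrays of the same 5 lines gave 285 called genes (2.29%), of which 179 rose (1.44%) and 106 fell (0.853%). The counts without single arrays were 91 without heterozygous array 11, 136 without heterozygous array 15, 155 without null array 12 and 170 without null array 13. Both comparisons called 140 genes, all with the same sign, 101 higher and 39 lower in null lines. These are 39.0% of the 359 genes called with GFP virus and 49.1% of the 285 called without it. A further 219 genes, 144 higher and 75 lower, were called with GFP virus and not without it. Of the 219, 198 had the same sign in the untransduced arrays, 126 of these at an unadjusted p under 0.05, and 21 had the opposite sign. The untransduced difference was under 50% of the GFP difference, or opposite to it, in 130 of the 219 and under 25% in 58. In the other direction 145 genes were called in untransduced arrays and not with GFP virus, and 136 of them had the same sign with it.

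The test of the change itself was far sparser. In the same limma fit, the null-minus-heterozygous difference with GFP virus differed from that without it at 1 of 12428 genes (0.00805%), with 711 at an unadjusted p under 0.05. That gene, Slc6a11, was not among the 359, so that 0 of the genes called with GFP virus had a called change. The smallest adjusted p of the change among them was 0.073, for Myo10. For none of the 219 genes was the difference thus shown to be absent without GFP virus. The low count does not show that differences stayed the same, as this test finds fewer true effects. In simulated data with 200 changed genes and independent noise, it recovered 18% of 2-fold and 57% of 4-fold changes. The test of the difference with GFP virus recovered 49% and 88%. The adjusted threshold is looser where many genes change, so the rates for the change may be too high for data with 1 call.

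**Figure D2:**
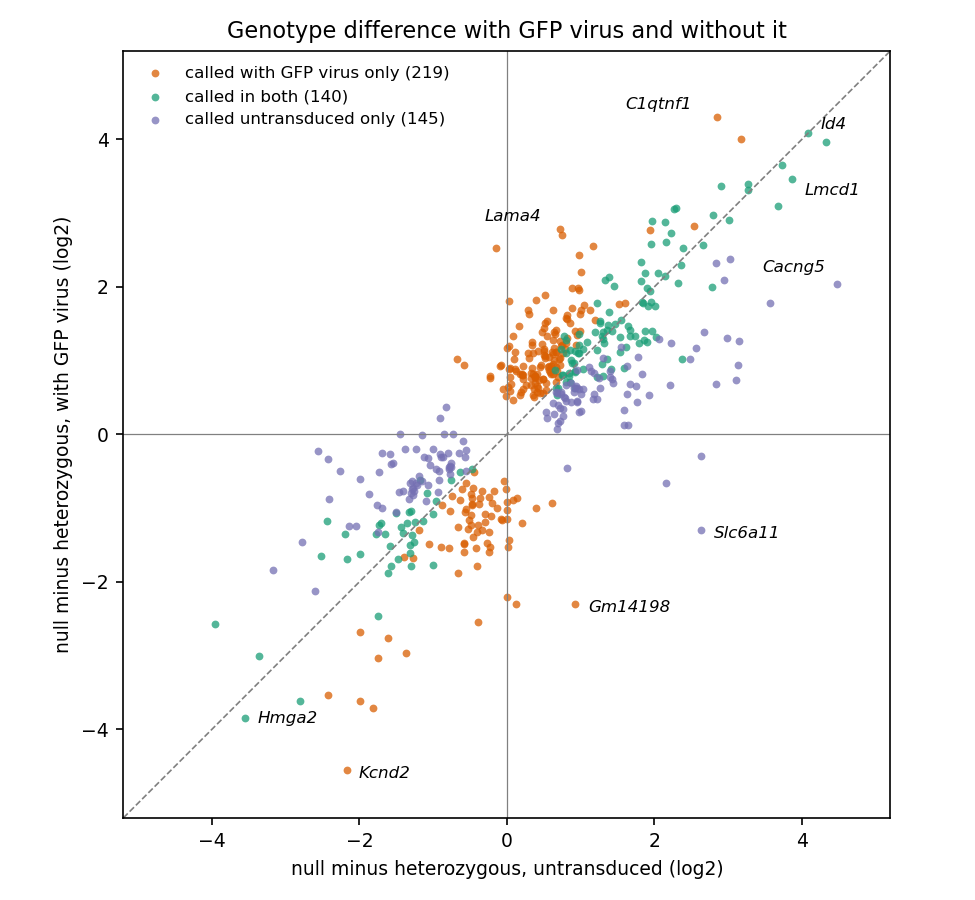
Null minus heterozygous log2 difference with GFP virus (vertical) against that in untransduced arrays of the same lines (horizontal) for each gene called in either comparison. The dashed line marks equal differences. The 140 genes called in both lie in the upper right and lower left quadrants, and Slc6a11 lies far below the line.

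Slc6a11 encodes GAT-3, a GABA transporter of astrocytes. With GFP virus its signal was 783, 839 and 1793 in null lines 12, 13 and 14, against 3678 and 1853 in heterozygous lines 11 and 15, and without it 3624, 3682 and 4101 in null lines, against 582.1 and 612.3 in heterozygous lines. Null lines were thus the higher ones without the virus and the lower ones with it, and the groups did not overlap on either side. The difference was -1.29 ± 0.33 (SE, adjusted p 0.065, not called) with GFP virus and 2.64 ± 0.33 (SE, adjusted p 0.0016) without it. The change was -3.93 ± 0.47 (SE, adjusted p 0.041). With the line as a fixed block it was the same in size, with an adjusted p of 0.059, and was not called. The change was also not called without 8 of the 10 arrays in turn, over a range of -3.96 to -3.44, and was called without null GFP array 14 (-4.31) or heterozygous GFP array 15 (-4.42). The 3 null lines that have no GFP array spanned a wide range without virus, at 7115, 899 and 599, and the remaining heterozygous line was at 497. The second Slc6a11 probe set had a mean signal of 11.1 and gave no reading.

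Myo10, an unconventional myosin of filopodia, had the smallest p of the change among the 359 genes. It was at 3327, 2731 and 3037 in null GFP lines, against 5383 and 6204 in heterozygous GFP lines, and fell by 0.93 (adjusted p 0.0061). Without the virus it was at 4073, 3569 and 4710.3 in null lines, against 2438 and 2907 in heterozygous lines, a difference of 0.62 that was not called (adjusted p 0.059). All 4 Myo10 probe sets were lower with GFP virus and higher without it, with changes of -1.55 to -1.15. The change of the probe set used was -1.55 ± 0.21 (SE, adjusted p 0.073). The 4 probe sets were read on the same arrays. In the untransduced lines that have no GFP array, Myo10 was at 7245.9, 3040.6 and 3008.9 in null lines, against 4384.7 in the heterozygous line. Null lines thus lay on both sides of the heterozygous line without GFP virus.

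The genes called with GFP virus whose difference moved furthest from that of the untransduced arrays lay in several functional groups. Lama4, a laminin chain of vessel and nerve basement membranes, was at 434, 536 and 258 in null GFP lines, against 28.9 and 62.6 in heterozygous GFP lines, and rose by 2.78. Without the virus it was at 55.8, 57.5 and 81.5 in null lines, against 45.9 and 22.5 in heterozygous lines, a difference of 0.71. Null arrays with GFP virus were here the only high ones of the 10. The second Lama4 probe set gave 0.60 with GFP virus and -0.20 without it, and the call was lost without heterozygous GFP array 11 (2.38) or null GFP arrays 12 (2.71) or 13 (2.56). Itga8, an integrin alpha chain, was at 1354, 1509.6 and 1494 in null GFP lines, against 259 and 169.7 in heterozygous GFP lines, and rose by 2.70 ± 0.35 (SE, adjusted p 0.0016). Without the virus it was at 754, 404 and 279 in null lines, against 319.7 and 205 in heterozygous lines, where the groups overlapped (0.74, adjusted p 0.39). The change for Itga8 was 1.95 (adjusted p 0.49), and its second probe set had a change of 2.06.

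Clic5, of the chloride intracellular channel family, rose by 1.80 with GFP virus, with 3978, 3867 and 3216 in null lines against 884 and 1224 in heterozygous lines, and stood at 0.03 without it. Rasd2, a Ras-related GTPase gene, rose by 2.53 with the virus and stood at -0.15 without it. In the untransduced lines that have no GFP array, Clic5 was at 1623.6, 4945.5 and 4917.8 in null lines, against 1534.4 in the heterozygous line. High Clic5 signals were thus also seen in null cultures without GFP virus. Rasd2 was at 52.9, 252.9 and 234.3 in these null lines, against 259.9. Clic5 was not called without heterozygous GFP array 11 (1.57), nor Rasd2 without heterozygous GFP array 15 (1.84). With GFP virus the other 3 Clic5 probe sets stood at 1.93, 1.48 and 0.55, and the second of Rasd2 at -0.36. Among the falls, the predicted gene Gm14198 was at 40.7, 65.4 and 42.6 in null GFP lines, against 290.0 and 316 in heterozygous GFP lines, and fell by 2.30. Without the virus Gm14198 was at 215, 224 and 114 in null lines and 67.1 and 108 in heterozygous lines, an opposite difference of 0.93 that was not called. In the untransduced lines that have no GFP array, however, Gm14198 was at 43.2, 52 and 37 in null lines, against 215.9 in the heterozygous line. There null lines were the lower ones without GFP virus too. Mylk, the myosin light chain kinase gene, fell by 2.55 with the virus and stood at -0.40 without it. Gm14198 and Mylk lost their calls without heterozygous GFP array 11 (-2.36 and -2.72) or 15 (-2.24 and -2.38). The calmodulin-binding gene Nrgn fell by 2.30, with no call without 7 of the 10 arrays in turn (-2.82 to -1.83). Gpaa1, a subunit of the GPI transamidase on chromosome 15, fell by 2.21 on the probe set used, but its other 2 probe sets stood at -0.08 and -0.15, so the fall belonged to 1 probe set.

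**Figure D3:**
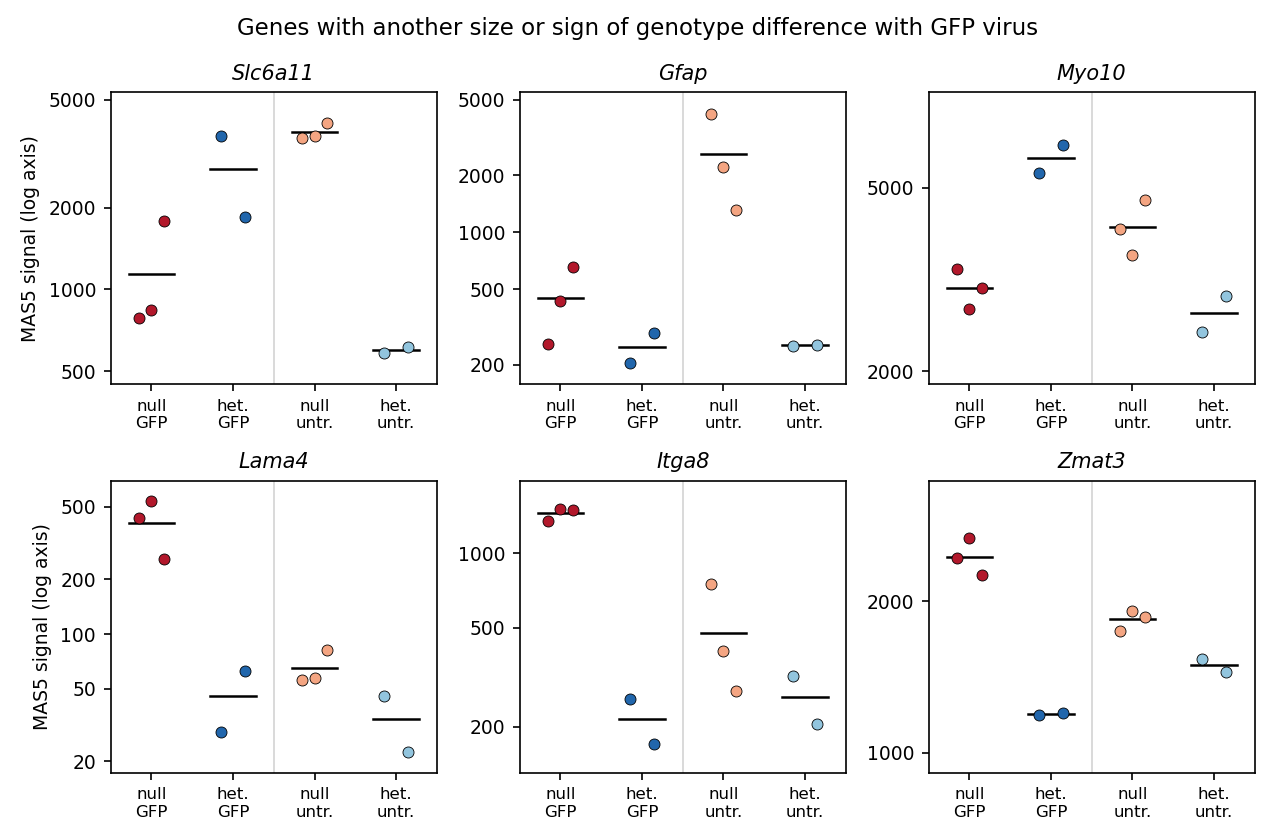
MAS5 signal (vertical log axis) of 6 genes on each array, in the same layout as the plot of Id4 and Hmga2: points are arrays, bars are group means, null lines stand left of heterozygous (het.) lines and GFP arrays left of untransduced (untr.) ones. Slc6a11 and Myo10 run in opposite directions on the 2 sides, Gfap differs on the untransduced side, and Lama4, Itga8 and Zmat3 differ more on the GFP side.

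Gene lists were read by their counts and medians, beside the 1.97% of all genes that rose and 0.917% that fell with GFP virus, and the 1.44% and 0.853% without it. The astrocyte list gave 1 rise and 1 fall among 23 genes with GFP virus, with a median difference of -0.01. Glul, glutamine synthetase, rose by 1.47 ± 0.17 (SE), with 8227, 8693 and 10389.7 in null lines against 3458 and 3084 in heterozygous lines. It was not called in the fit with the Olig2 virus arrays (1.47) or in a fit of all 22 neurosphere arrays (1.47). Gja1, the gap junction gene of astrocytes, fell by 1.66, and lost the call without 7 of the 10 arrays in turn (-1.92 to -1.47). Untransduced arrays gave 4 rises and 0 falls of the 23, with a median of 0.36, and the 4 were Glul (1.64), Apoe (3.02), Gfap (3.11) and Cst3 (0.76). Gfap, the intermediate filament of astrocytes, was at 257, 434 and 652 in null GFP lines, against 205 and 293 in heterozygous GFP lines, a difference of 0.73 that was not called (adjusted p 0.44). Without the virus it was at 4232, 2201 and 1316 in null lines, against 252 and 254 in heterozygous lines (adjusted p 0.0031). Null untransduced arrays were thus the high ones, and all 3 Gfap probe sets had a smaller difference with the virus, by -2.72 to -1.63. The change of the Gfap probe set used had an adjusted p of 0.49. Over the list the change was negative for 19 of 23 genes, with a median of -0.50, against -0.003 over all genes, and 8 were lower at an unadjusted p under 0.05 (2.85% of all genes were), none of them past the adjusted threshold. A median change of this size was not particular to astrocyte genes. It was -0.65 over 11 neuronal genes, -0.50 over 15 immediate early genes and -0.49 over 5 ganglionic eminence genes. In these lists 2, 1 and 1 genes were lower at an unadjusted p under 0.05. Null GFP array 13, with the high Gapdh ratio, had signals of Gfap and Slc6a11 between those of arrays 12 and 14. With the Gapdh ratio as a covariate the change of Slc6a11 was not called. The part of RNA quality in these genes was not tested further.

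Oligodendrocyte precursor genes gave 0 rises and 1 fall of 12 tested, with a median of -0.22, and 0 rises and 2 falls without the virus. Ednrb, an endothelin receptor of the lineage, was at 1373, 1115 and 1079.8 in null GFP lines, against 3161 and 2905 in heterozygous GFP lines, and fell by 1.35. Its call was lost without either heterozygous GFP array (-1.28 without 11 and -1.41 without 15) or null GFP arrays 13 (-1.30) or 14 (-1.28). Cspg4, the NG2 proteoglycan, fell by 2.00 in untransduced null lines and stood at -0.61, not called, with GFP virus. Neural stem cell genes gave 1 rise and 2 falls of 20 with the virus, against 4 rises and 0 falls without it. Gli2, an effector of Hedgehog signalling, was at 352, 428 and 456 in null GFP lines, against 86.2 and 34.6 in heterozygous GFP lines, and rose by 2.56. Leaving out heterozygous GFP array 15 gave 2.06 and ended the call. Its rise without the virus was 2.66. Sox3, a stem cell factor gene on the X chromosome, fell by 0.95 and the radial glia fatty acid carrier Fabp7 fell by 0.74 with GFP virus, each with no call without 8 of the 10 arrays in turn (-1.19 to -0.73 and -0.92 to -0.57). Sox1 rose by 1.40 without the virus and stood at 0.85, not called, with it.

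BMP and Id genes gave 2 rises and 1 fall of 14 with GFP virus, with a median of -0.12, and 3 rises and 0 falls without it. Beside Id4, the signal transducer Smad1 rose by 0.80 with the virus and 0.74 without it. Its call with the virus was lost without heterozygous GFP array 11 (0.77) or 15 (0.83) or null GFP array 14 (0.62). The ligand gene Bmp7 was at 511, 396 and 261 in null GFP lines, against 949.7 and 1323 in heterozygous GFP lines, and fell by 1.54, with no call without 7 of the 10 arrays in turn (-1.77 to -1.29). The receptor gene Bmpr1b stood at -1.39 with the virus and 0.70 without it, both not called.

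Feedback genes of the MAP kinase pathway gave 2 rises and 0 falls of 14 with GFP virus, and 2 and 0 without it. Dusp4, a phosphatase that inactivates MAP kinases, was at 4727, 6899 and 4813 in null GFP lines, against 787 and 643 in heterozygous GFP lines, and rose by 2.89 ± 0.19 (SE, adjusted p 1.8e-05). Without the virus its rise was 1.97, and the change of 0.93 was not called (adjusted p 0.60). The other riser was Rgs16. The ETS factor gene Etv5 stood at 0.50 (adjusted p 0.062) and Spred1, an inhibitor of Ras signalling, at 0.47 with the virus. Among immediate early genes 1 of 15 rose, Ier3, by 1.54 with the virus and 1.26 without it, and it was not called without heterozygous GFP array 11 (1.46). Zfp36, which destabilises inflammatory mRNAs, stood at -0.65 with the virus and 0.83 without it, not called either way. Ier3 was at 3889, 3369 and 3345 in null GFP lines, against 1137 and 1275 in heterozygous GFP lines, and at 6010.4, 6238 and 6993 in null untransduced lines, against 3852 and 1843 in heterozygous untransduced lines.

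Among 19 target genes of p53, GFP virus arrays gave 2 rises, 0 falls and 17 genes without a call, with a median of 0.40, and 8 were higher at an unadjusted p under 0.05 (8.32% of all genes were). Without the virus limma called 0 of 19, with 4 higher (6.59% of all genes were) and 1 lower (6.5%) at an unadjusted p under 0.05, and the median was 0.11. Zmat3, a zinc-finger protein gene, was at 2431, 2671 and 2248 in null GFP lines, against 1185 and 1196 in heterozygous GFP lines, and rose by 1.03 ± 0.12 (SE, adjusted p 0.0011). In untransduced lines Zmat3 was at 1747, 1914 and 1862 in null and 1536 and 1444 in heterozygous lines, a difference of 0.30 that was not called, and the change of 0.73 had an adjusted p of 0.47. Over the list 4 changes were more positive at an unadjusted p under 0.05 (2.87% of all genes were) and 1 was more negative. In Zmat3 the null GFP arrays were the highest of the 10 and the heterozygous GFP arrays the lowest. Ei24, an endoplasmic reticulum protein gene, rose by 0.62, with no call without 8 of the 10 arrays in turn (0.50 to 0.74). The death receptor gene Eda2r stood at 0.88 and the atypical cyclin gene Ccng1 at 0.76, both with an adjusted p of 0.054.

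Among 23 hypoxia and glycolysis genes, GFP virus arrays gave 0 rises and 2 falls, with a median of -0.31, and untransduced arrays also gave 0 rises and 2 falls, with a median of -0.44. Bnip3, a mitophagy receptor, was at 432, 645 and 398 in null GFP lines, against 1255 and 1963 in heterozygous GFP lines, and fell by 1.68, but was not called without null GFP array 14 (-1.54) or heterozygous GFP array 15 (-1.35). Lactate dehydrogenase, Ldha, fell by 0.51, with no call without 7 of the 10 arrays in turn (-0.63 to -0.40). The 2 falls of untransduced null lines were in other genes, the growth factor Vegfa (-0.86) and Ankrd37 (-1.87), which stood at -0.31 and -0.81 with the virus. The kinase gene Pdk1 (-0.96) and the glucose transporter gene Slc2a1 (-0.80) were not called with it.

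**Figure D4:**
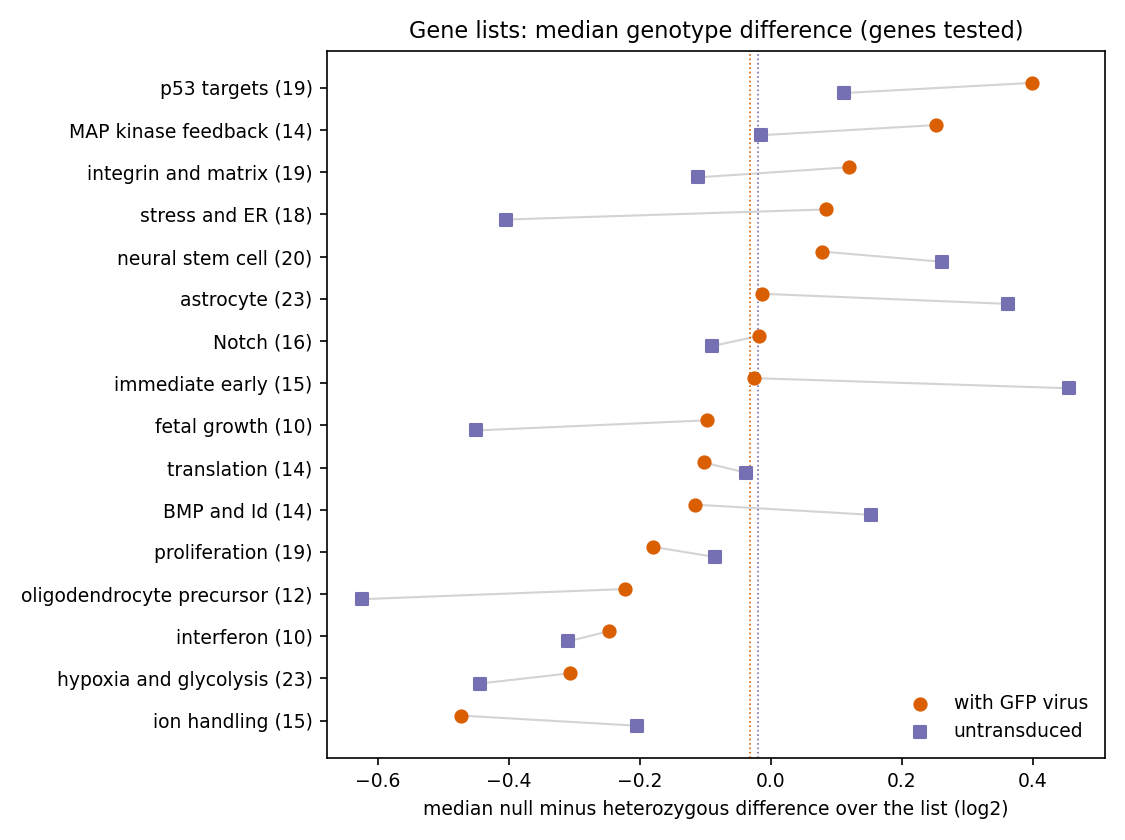
Median null minus heterozygous log2 difference (horizontal) over each of 16 gene lists (vertical, genes tested in brackets), with GFP virus (circles) and in untransduced lines (squares). Dotted lines mark the medians of all genes, -0.03 with GFP virus and -0.02 without it. The astrocyte list lies at -0.01 with the virus and 0.36 without it, and the p53 target list at 0.40 and 0.11.

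Integrin and matrix genes gave 3 rises and 0 falls of 19 with GFP virus (1.97% of all genes rose), against 0 called in limma without it. Without the virus 4 were higher (6.59% of all genes were) and 3 lower (6.5%) at an unadjusted p under 0.05. The 3 were Itga8 and Lama4, described above, and Tnc, tenascin-C, which was at 11587, 15979.5 and 11030.1 in null GFP lines, against 4842 and 4739.7 in heterozygous GFP lines, and rose by 1.40. A second Tnc probe set stood at 0.26. Without the virus Tnc stood at 0.92 (adjusted p 0.068), and its call with the virus was lost without heterozygous GFP array 11 (1.42) or 15 (1.39). Fibronectin, Fn1, stood at -0.76, not called. The list's median was 0.12 with the virus and -0.11 without it.

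Ion handling genes gave 0 rises and 3 falls of 15 with GFP virus, namely Kcnd2, Ryr3 and Car8, and 2 rises and 0 falls without it. Over all genes 0.917% fell with the virus and 1.44% rose without it. Cacng5, a transmembrane AMPA receptor regulatory gene, rose by 4.48 without the virus, with 3253, 2162 and 1922 in null lines against 53.9 and 150.3 in heterozygous lines. With GFP virus it was at 297, 1352 and 1467 in null lines, against 227 and 166 in heterozygous lines, a difference of 2.03 that was not called. The second Cacng5 probe set stood at -0.13 with the virus and 1.12 without it. The glial potassium channel gene Kcnj10 rose by 2.48 without the virus and stood at 1.02, not called, with it. In untransduced arrays Kcnd2 (-2.17), Ryr3 (-1.99) and Car8 (-1.75) kept their direction with adjusted p from 0.071 to 0.095. None of the 5 had a called change.

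Notch pathway genes gave 0 rises and 1 fall of 16 with GFP virus, and 2 rises and 1 fall without it. The ligand gene Dll1 was at 708, 449.5 and 449 in null GFP lines, against 1607 and 1338 in heterozygous GFP lines, and fell by 1.46, as it did without the virus (-1.25). With heterozygous GFP array 11 left out it stood at -1.33 and was not called. The Notch target gene Hes5 (-1.81), the fringe gene Lfng (-0.75) and the ligand gene Jag1 (0.68) were not called. Fetal growth genes gave 0 rises and 2 falls of 10 with the virus and without it. Beside Hmga2 this was the imprinted gene Mest, at 8533, 10729.7 and 6391 in null GFP lines, against 16112 and 18982 in heterozygous GFP lines, which fell by 1.06 with the virus and by 1.51 without it, and was not called with it when heterozygous GFP array 15 was left out (-0.94). The growth factor receptor gene Igf1r stood at 0.51 with the virus.

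Proliferation genes gave 0 rises and 1 fall of 19 with GFP virus, with 4 lower at an unadjusted p under 0.05 (8.06% of all genes were) and a median of -0.18, and 0 calls in limma without it, 0 of them at an unadjusted p under 0.05. Ccnb2, cyclin B2, was at 451, 601 and 550.0 in null GFP lines, against 1070.1 and 1328 in heterozygous GFP lines, and fell by 1.15, with no call without heterozygous GFP array 11 (-1.30) or 15 (-0.99). It stood at -0.09 without the virus. The mitotic kinases Bub1 (-0.43) and Plk1 (-0.47) and thymidylate synthase, Tyms (-0.93), were not called. Of 22 interferon genes with a probe set, 10 were tested. They gave 0 calls in limma with GFP virus, 0 of them at an unadjusted p under 0.05, with a median of -0.25. Without it they gave 0 calls, and 1 had an unadjusted p under 0.05. Such genes can respond to a virus, but a response shared by both genotypes would not show in this difference. Translation genes also gave 0 of 14 with GFP virus, with 0 at an unadjusted p under 0.05.

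The untransduced lines that have no GFP array, null 16, 21 and 24 and heterozygous 26, were not used in the fit. Of the 359 genes called with GFP virus, 327 (91.1%) had the same sign between these null lines and the heterozygous line, against 55.5% of all genes tested. Among the 140 genes called in both comparisons it was 139, and among the 219 called with GFP virus alone it was 188. Lama4 was at 35.7, 509.5 and 641 in these null lines, against 237 in the heterozygous line, so that 2 of these null cultures without GFP virus had signals in the range of null GFP arrays or near it, and the heterozygous culture lay between. Gfap was at 6441, 339.5 and 297 in null lines, against 193 in the heterozygous line, and was high in 1 of the 3. Set against all 6 null and 3 heterozygous untransduced arrays, which gave 425 calls, 163 of the 359 genes were called with the same sign, 45.4% of the 359 and 38.4% of the 425.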

How the data were processed

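RNA was measured on Affymetrix Mouse 430 2.0 arrays, and the deposited values are intensities from MAS5, per the submitters' processing notes. On every array the mean over probe sets, with 2% trimmed at each end, was 500. Detection calls were not used. Of 45101 probe sets, 34945 have 1 gene symbol in the platform annotation, and each gene was read by its probe set of highest mean over all 30 arrays. Genes with a signal at or above the array median on 2 or more of the 10 arrays were tested, 12428 of 18193. Values were taken as log2(signal + 16).

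The limma fit (3.58.1 in R 4.3.3, lmFit and eBayes with a trend) held 4 group means over the 5 GFP and 5 untransduced arrays, with 3 contrasts, each adjusted over all genes by Benjamini-Hochberg. The fit was tested on simulated data. Both arrays of line 15 shared the high Xist signal, but over all genes the deviations of same-numbered arrays did not rise together. A line block is therefore an alternative only, and the 1 called change was not called with the line as a fixed block. P-values measure the spread between these arrays, whose number limits the precision.

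Genes named are Olig1, Olig2, Id4 and Cdkn2a; the 12 largest rises and 12 largest falls called with GFP virus; the 10 called genes whose difference exceeded that of untransduced arrays most; genes called in the change; and up to 4 genes of smallest p from each of the described lists. Genes named in addition for a call in the untransduced arrays or for the change (among them Myo10, Gfap, Apoe, Cst3, Cspg4, Sox1, Cacng5, Kcnj10, Vegfa and Ankrd37) were chosen after their values were seen. The comparison and the gene lists were chosen with earlier results of these data known. Sequences are from RefSeq (GRCm38.p6). Plots used matplotlib 3.10.9.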

Additional observations from a re-analysis of the deposited data

Results flagged for a closer look

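Slc6a11 stood out because its null-minus-heterozygous difference was not the same with GFP virus as without it in a test of that change. The change was -3.93 on the log2 scale (limma, adjusted p 0.041), the difference being -1.29 with GFP virus and 2.64 in untransduced arrays. All 3 null GFP arrays were lower than all 3 null untransduced arrays, and both heterozygous GFP arrays were higher than both heterozygous untransduced arrays. As the gene was picked by this test on the same arrays, that separation follows from the choice and adds no support. The change was not called with the line as a fixed block, with the Gapdh ratio as a covariate or with most single arrays left out. The untransduced null lines outside the fit ran from 599 to 7115, a wider range than that of the 10 arrays in it.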

How the results depend on the processing

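The number of genes called with GFP virus (359) moved to 610 with all probe sets, 177 with no trend, 187 with the Gapdh ratio as a covariate, 212 in the fit with Olig2 virus arrays, 236 with the 5 GFP arrays alone and 148 with a term for Xist, and ran from 133 to 440 with single arrays left out. The untransduced count (285) moved to 454 with all probe sets, 530 with array weights, 144 with no trend, 431 with all 22 neurosphere arrays in 1 fit, 146 with the Xist term and 180 without both arrays of line 13, and ran from 91 to 347 with single arrays left out. The 1 called change became 2 with array weights and 0 with no filter, a stricter filter, all probe sets, no trend, all 22 arrays, the Gapdh ratio, the Xist term or both arrays of line 13 left out, and was 0 to 1 with single arrays left out. With the line number as a fixed replicate block, which leaves the differences within a kind of array unestimated, it was 0. Same-numbered arrays deviated together at correlations of -0.10 to -0.02, and a random line block, with a consensus correlation of -0.11, called 367 genes with GFP virus and 287 without it. Near 0, the change for Id4 turned to -0.021 with 1 added, -0.13 after quantile normalization, -0.43 with all 22 arrays, -0.22 with the Gapdh ratio and -0.003 without line 13, and ran from -0.33 to 0.35 with single arrays left out. That for Hmga2 turned to 0.003 with the Gapdh ratio and ran from -0.93 to 0.32. Scaling to the 75th percentile called 297 higher and 97 lower genes with GFP virus, against 245 and 114. Among named genes, 268 values over all settings lost the call with GFP virus and 38 gained one. A further 2087 kept their side of the threshold, and no value changed direction. The 2087 include named genes that were not called and so had no call to lose. Except where a value above shows it, the cause was not tested. The Xist and line 13 settings were chosen after seeing the data. Depth on arrays is signal over background, and Kcnd2 and Pcdh7 in null lines and Thsd4 and Rab3c in heterozygous lines were near the constant added.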

Other observations

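Genes of the amino acid and endoplasmic reticulum stress response, such as asparagine synthetase (Asns) and the factor gene Atf5 gave 0 rises and 4 falls of 18 tested in untransduced null lines (0.853% of all genes fell), with a median of -0.40. With GFP virus limma called 0 of the 18, where 4 were higher (8.32% of all genes were) and 3 lower (8.06%) at an unadjusted p under 0.05 and the median was 0.09. Asns was at 3558, 3702 and 2169.6 in null GFP lines, against 3127 and 2978 in heterozygous GFP lines, and at 1923, 2284 and 3319.8 in null untransduced lines, against 7933 and 5662 in heterozygous untransduced lines. Its difference was 0.003 with GFP virus and -1.45 without it. Atf5 stood at -0.20 with the virus and fell by 1.01 without it. The others that fell without the virus were the kinase-like gene Trib3 (-1.31) and the secreted protein gene Stc2 (-0.91), which stood at -0.66 and -0.49 with it. The difference was more positive with GFP virus for all 18 genes tested, with a median change of 0.46, against -0.003 over all genes. The 18 were read on the same arrays and are not independent observations. For some of them untransduced heterozygous array 11 lay well above array 15, as for Hspa5 (14744 and 7868) and Trib3 (1014 and 609). For Atf5 (3087 and 3007) and Stc2 (730 and 742) these 2 arrays were alike. None of the 18 changes was called, and 4 were more positive at an unadjusted p under 0.05 (2.87% of all genes were).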
